A study of Homo sapiens with 6 samples.

Results

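Translation initiation factor genes encode the proteins that bring a ribosome to the start codon of an mRNA. They were chosen here by name: every protein-coding row of the deposited count table whose symbol starts with EIF and a digit, without the kinases named EIF2AK, the binding proteins named EIF4EBP and the chromosome Y gene. The table held 131 EIF symbols followed by a digit, of which 56 were protein-coding. Of those 56, 7 were left out as kinases or binding proteins and 1 because it lies on chromosome Y, which left 48 genes of 58735 rows. The rule uses names and annotation only.

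The study set slow-cycling cells (SCC) against rapid-cycling cells (RCC) of one breast cancer line, and the question it posed was which genes differ in expression between them. The line was MDA-MB-231, an established human line of mesenchymal appearance that lacks the oestrogen and progesterone receptors and HER2 amplification. All cells carried the wild-type genotype (WT) and were grown in high-glucose DMEM with fetal bovine serum. Both groups had been stained with PKH26, a membrane dye diluted by division, and were sorted from culture after 12 days: the brightest 1% formed the SCC group, and cells of moderate intensity formed the RCC group, whose characteristics label reads PKH26lo. Each group had 3 libraries of total RNA, named by the submitters as biological replicates, so p-values measure the spread among these libraries of 1 line. The model is therefore dye retention in unselected culture, without a perturbed gene in either group.

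Initiation begins when the eIF2 complex carries the initiator tRNA to the small ribosomal subunit, where eIF1, eIF1A, eIF5 and the many-subunit eIF3 complex gather. The eIF4F complex (the cap-binding protein eIF4E, the scaffold eIF4G and the helicase eIF4A) brings the mRNA, and eIF5B then joins the large subunit. Phosphorylation of eIF2 blocks its recycling by the exchange factor eIF2B and slows protein synthesis, and the kinase mTOR acts on the step that assembles eIF4F. These RNA libraries measure the mRNAs of the factors and not the proteins, their phosphorylation or translation itself.

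Several of the 48 genes have close copies, and the likeness bears on how reads can be told apart between them, so the start of their coding sequences is shown. Sequences are the first 90 coding bases, written from the start codon onwards, of the transcript with the longest coding sequence in GENCODE 29; capitals mark positions that are not the same in all genes of a set. EIF3C (chr16:28688558-28735730) and EIF3CL (chr16:28379579-28403879) lie on opposite strands of chromosome 16 and do not differ there at all.
EIF3C: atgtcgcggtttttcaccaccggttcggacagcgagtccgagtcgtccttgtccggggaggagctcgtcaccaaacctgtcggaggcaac
EIF3CL: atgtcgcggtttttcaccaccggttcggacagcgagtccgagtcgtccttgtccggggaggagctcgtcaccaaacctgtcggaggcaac
All 2739 aligned coding bases of this pair were identical. EIF2S3 on chromosome X and EIF2S3B on chromosome 12 encode the gamma subunit of eIF2 and a near copy of it.
EIF2S3: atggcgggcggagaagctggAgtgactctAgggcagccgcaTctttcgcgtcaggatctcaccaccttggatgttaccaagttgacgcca
EIF2S3B: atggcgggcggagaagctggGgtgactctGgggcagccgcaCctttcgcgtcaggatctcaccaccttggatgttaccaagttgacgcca
They were identical at 1391 of 1416 aligned bases (98.2%). EIF5A, EIF5AL1 and EIF5A2 encode the only proteins known to carry the modified residue hypusine, or a close copy of one.
EIF5A: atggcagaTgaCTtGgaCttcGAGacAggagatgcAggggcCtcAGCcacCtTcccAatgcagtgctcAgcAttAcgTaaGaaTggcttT
EIF5AL1: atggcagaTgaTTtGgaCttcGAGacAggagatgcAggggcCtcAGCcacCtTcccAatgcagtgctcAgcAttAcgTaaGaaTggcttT
EIF5A2: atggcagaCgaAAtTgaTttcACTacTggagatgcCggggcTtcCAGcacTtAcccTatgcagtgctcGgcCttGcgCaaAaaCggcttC
EIF5AL1 was 98.9% identical to EIF5A over 462 aligned bases, whereas EIF5A2 was 71.9% identical to EIF5A over 459. EIF1 and its paralog EIF1B, whose products keep the scanning ribosome from stopping at a wrong codon, were 82.0% identical over 339 bases.
EIF1: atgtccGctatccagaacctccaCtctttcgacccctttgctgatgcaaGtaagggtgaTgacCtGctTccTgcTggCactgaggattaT
EIF1B: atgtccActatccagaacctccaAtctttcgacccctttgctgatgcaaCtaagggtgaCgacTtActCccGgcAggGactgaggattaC
Likeness over the whole gene was counted as the share of 50-base windows of its annotated transcripts that also occur in another gene's transcript. Genes whose exons overlap it were not counted as other genes, so such overlap adds nothing to the share. This share was 97.2% for EIF3CL, 45.4% for EIF3C, 26.8% for EIF2S3B, 22.6% for EIF2S2 (mostly in the pseudogene EIF2S2P4), 19.4% for EIF4B, 19.2% for EIF2S3, 15.4% for EIF5AL1, 15.3% for EIF5A and 12.5% for EIF4H. How reads in such windows were counted is not given in the sources used here, so the values of these genes are uncertain.

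The libraries held between 17655855 and 27831824 counts, and the 48 genes took between 1.11% and 1.19% of them. The 95% Wilson interval for SCC replicate 1 was 1.111% to 1.119%, and those of the other libraries were as narrow; they cover counting error only. SCC replicate 1 stood apart from the other SCC libraries, and the chi-square of its counts against theirs, per degree of freedom, was 28.9 and 21.7, where every other pair within a group gave 3.30 to 4.30. In this library genes rich in A and T read lower than in the other libraries, and many values are therefore also given without it. Without it 10 of the 47 tested members changed the sign of their fold change, none of which was called either way. All 8 markers of MDA-MB-231 and like lines were present, at gene means from 31.1 to 785 CPM, whereas of 6 genes listed as absent or low in such lines ESR1, PGR and CDH1 stayed at or under 0.70 CPM. The other 3 of those 6 were detected, at means of 4.67 (EPCAM), 8.87 (FOXA1) and 8.30 CPM (GATA3), and FOXA1 read 8.74 to 11.8 CPM in SCC and 6.43 to 8.56 CPM in RCC. Of 6 leukocyte markers none averaged 5 CPM; their summed level was 3.97 CPM in SCC replicate 1 (of which PTPRC gave 1.97 CPM), 0.971 and 1.38 CPM in the other SCC libraries, and 0.717 to 1.06 CPM in RCC, with CD3E at 0 in 5 of 6 libraries. Of 6 fibroblast markers COL1A1 and PDGFRB were present and the other 4 stayed under 1 CPM; their sum was 23.4 to 28.4 CPM in SCC and 18.7 to 22.6 CPM in RCC. The part of either list in the results was not tested.

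Levels are compared between genes only as deposited FPKM, that is, counts per length and library size. The length is that of all annotated exons of a gene joined, for example 1725 bases for EIF3I and 14067 for EIF4E. The order of genes therefore also depends on the annotation. EIF5A, which helps ribosomes through difficult stretches of peptide, had the highest mean over the 6 libraries at 332 FPKM, followed by the helicase cofactor EIF4H at 283 FPKM, EIF1 at 166 FPKM, the eIF3 subunit EIF3I at 151 FPKM and the helicase EIF4A2 at 145 FPKM. The scaffold genes EIF4G1 (124 FPKM) and EIF4G2 (119 FPKM) came next, and their ranges over the libraries overlapped (119 to 142 and 114 to 124 FPKM), as did those of EIF1, EIF3I and EIF4A2. The median over the 47 tested genes was 33.1 FPKM. At the low end stood EIF4E3 (0.289 FPKM), a distant relative of the cap-binding protein, and EIF4E1B, known from oocytes. Of EIF4E3's coding bases 84.4% lie also in AC097634.4 on the same strand, which had 0 counts in all 6 libraries. How reads there were counted is not given, so the level of EIF4E3 is uncertain. EIF4E1B had 0, 2 and 0 counts in SCC and 3, 0 and 0 counts in RCC and was not tested. The range between genes was thus far wider than the range between libraries of one gene.

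**Figure D1:**
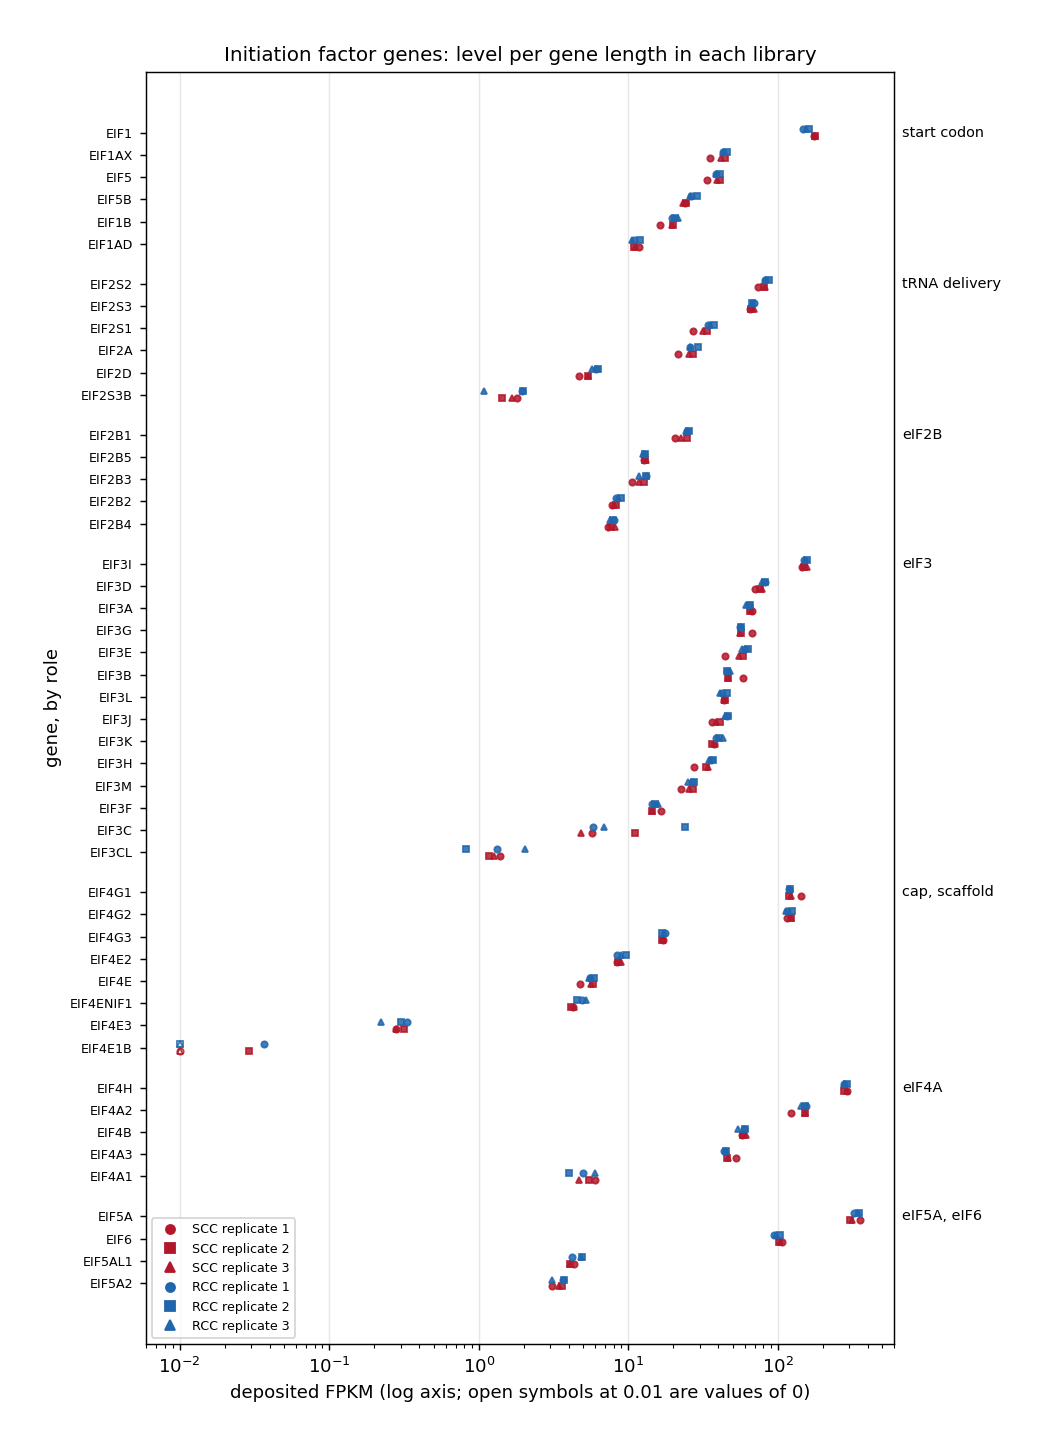
Deposited FPKM (log axis) of the 48 initiation factor genes, ordered by role and, within a role, by mean level. Each symbol is 1 library (red SCC, blue RCC; circle, square and triangle for replicates 1, 2 and 3), and open symbols mark values of 0; for nearly every gene the 6 symbols lie close together, with EIF3C in RCC replicate 2 the clearest exception.

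As a set the initiation factor mRNAs were near the same level in both groups. Their summed level was 11517 CPM ± 7.05 (SD, n = 3) in SCC and 11594 CPM ± 264 (SD, n = 3) in RCC, on CPM scaled by the trimmed mean of M values (TMM). In edgeR's quasi-likelihood test with Benjamini-Hochberg adjustment over 15881 genes, 0 of the 47 tested genes were called higher and 0 lower at an adjusted p under 0.05, where 2.07% of all genes were called (1.69% higher and 0.378% lower). Unadjusted p-values were under 0.05 for 1 gene higher in SCC (EIF1) and 4 lower (EIF3J, EIF2D, EIF2S1 and EIF5B), against 11.4% of all genes higher and 8.27% lower; DESeq2 (2.51% of all genes called higher and 0.763% lower) and limma on log2(FPKM + 1) (1.04% and 0.288%) also called 0 members in either direction.

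The initiation factor genes were measured with more precision than most. The 95% interval of the fold change lay within 1.5-fold either way for 45 of the 47 genes (95.7%, against 61.8% of all tested genes), and within 1.25-fold for 32 (68.1%, against 29.5%). The exceptions at 1.5-fold were EIF3C and EIF3CL. The median standard error of the log2 fold change was 0.077, against 0.120 over all genes, beside a median level of 165 CPM against 19.7 CPM. The fitted log2 fold changes of SCC over RCC had a median of -0.05 (all genes 0.00). Of the 47, 31 (66.0%) were below 0, against 49.5% of all genes. Without SCC replicate 1, 29 of the 47 were below 0 and the median was -0.03 (all genes -0.0006). With an offset for GC content, described below, 27 were below 0 and the median was -0.03 (all genes -0.0034). The 3 SCC libraries lay wholly above the RCC libraries for 4 genes (EIF1, EIF2B5, EIF3A and EIF4A3) and wholly below for 8 (EIF2D, EIF2S1, EIF2S2, EIF3H, EIF3J, EIF3K, EIF4ENIF1 and EIF5B), together 25.5% of 47, where 27.8% of all genes did not overlap (14.4% higher and 13.4% lower). In bulk RNA a lower value can come from fewer cells with the mRNA or from less of it per cell, and these cannot be told apart.

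**Figure D2:**
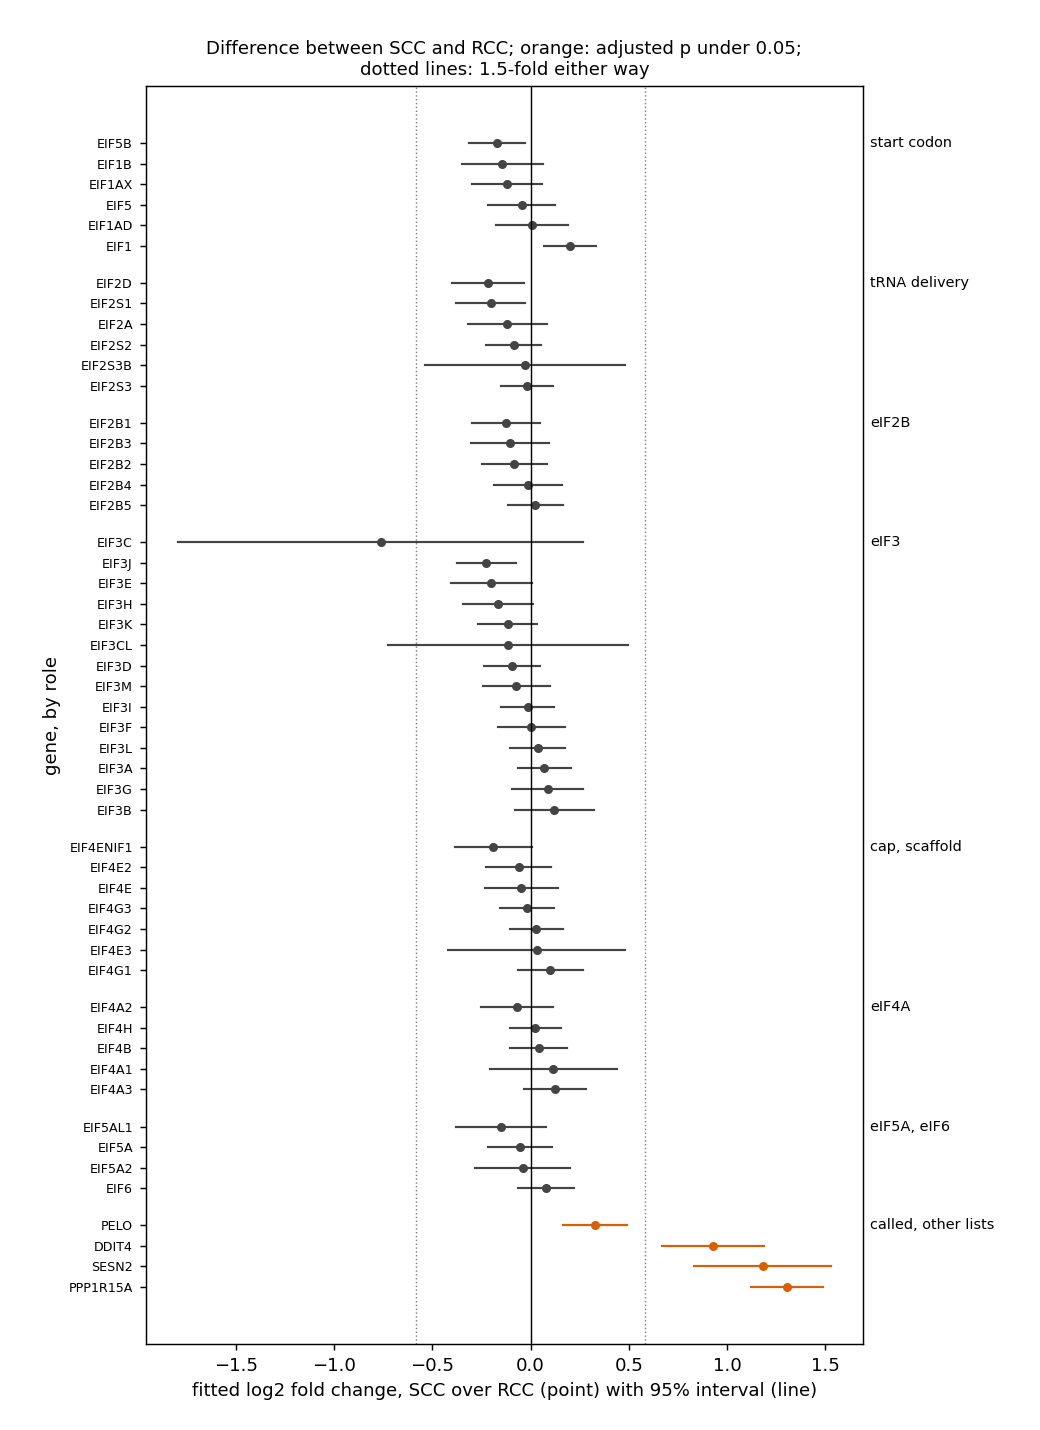
Fitted log2 fold change of SCC over RCC (point) and its 95% interval (line) for the 47 tested initiation factor genes by role, and below them the 4 called genes of the other translation lists in orange. Dotted lines mark 1.5-fold; the initiation factor intervals stay between them except for EIF3C and EIF3CL, whereas those of PPP1R15A, SESN2 and DDIT4 lie outside.

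Among the 6 genes of start codon selection and subunit joining, EIF1 had the highest fold change of all members. EIF1 (ENSG00000173812, chr17:41688885-41692668, plus strand) read 645, 642 and 648 CPM in SCC and 536, 581 and 566 CPM in RCC. The SCC libraries were all higher and lay closer together than the RCC libraries. The log2 fold change was 0.20 (SE 0.06, about 1.15-fold), with an edgeR adjusted p of 0.118, so EIF1 did not pass the test. It passed without SCC replicate 1 (log2 0.20, adjusted p = 0.00606, where 3.93% of all genes were called higher) and with a correction for GC content, an offset per library fitted on all genes (0.23, adjusted p = 0.0114, where 3.29% were), and over the 18 alternatives its adjusted p ran from 0.00606 to 0.452.

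The study's title names AP-1, so the promoter of EIF1 was read for AP-1 and related motifs. The 250 bases before the EIF1 start in the RefSeq table (GRCh38.p14, plus strand, chr17:41688635-41688884) are given with any motif in capitals.
EIF1 promoter: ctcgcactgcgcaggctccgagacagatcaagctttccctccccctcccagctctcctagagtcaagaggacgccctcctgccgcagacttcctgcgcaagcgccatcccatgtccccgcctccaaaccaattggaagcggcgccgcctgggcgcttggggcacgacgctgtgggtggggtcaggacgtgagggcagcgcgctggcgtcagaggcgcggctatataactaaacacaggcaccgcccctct
It held none of the 3 motifs searched on both strands: TGANTCA (AP-1), TGACGTCA (cAMP response element) and TGATGCAA (an ATF4 site); the same stretch cannot match more than 1 of them in full, and partial overlaps were not removed. Promoters of 41 of the 48 genes were matched by symbol. TGANTCA was in 2 of these 41 (EIF3J and EIF5AL1) (4.88%), in 6.60% of 27305 promoters of the same length and in 4.16% of 10641 promoters of tested genes. Neither of the others was in any of the 41, against 1.77% and 0.820% of all promoters and 2.80% and 0.376% of those of tested genes. These are letter matches in 1 window and say nothing of binding.

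The other genes of this step were fitted lower or near 0. EIF5B (ENSG00000158417, chr2:99337353-99401326), the GTPase that joins the subunits, read 192, 192 and 184 CPM in SCC and 209, 225 and 206 CPM in RCC. The groups did not overlap, the log2 fold change was -0.17 (SE 0.06) and the edgeR adjusted p was 0.185; without SCC replicate 1 it was -0.18 with an adjusted p of 0.0225 (2.10% of all genes called lower), and with the GC correction -0.05 with 0.701. EIF1AX, the X-linked gene of eIF1A, read 159 to 196 CPM in SCC and 192 to 202 CPM in RCC (log2 -0.12, SE 0.08, edgeR adjusted p = 0.421), with SCC replicate 1 the lowest, and the log2 value was -0.04 without it. EIF5, which activates the GTPase of eIF2, read 292 to 351 and 328 to 349.7 CPM (log2 -0.05, edgeR adjusted p = 0.760; 0.03 without SCC replicate 1). EIF1B and EIF1AD, a nuclear protein with an eIF1A-like domain, had log2 fold changes of -0.14 and 0.01 (-0.06 and -0.03 without SCC replicate 1). The median of the 6 genes of this step was -0.08, and it was 0.01 with the GC correction.

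EIF1 and EIF1B could be set against each other inside each library, where no scaling between libraries enters. The log2 ratio of EIF1 to EIF1B per length was 3.43, 3.15 and 3.18 in SCC and 2.90, 2.97 and 2.85 in RCC. All SCC ratios were above all RCC ratios, by a mean of 0.35. A two-sided exact permutation test gave p = 0.1, as low as this design allows, and 0.6 after adjustment over 6 paralog pairs. EIF1B had a lower GC content (42.8%) than EIF1 (46.4%), and the ratio was highest in SCC replicate 1. A part of base composition in this ratio was not tested. Without SCC replicate 1 the mean difference was 0.26.

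All 6 genes of initiator tRNA delivery were fitted below 0, with a median log2 fold change of -0.10, and none was called by edgeR. With the GC correction 4 of the 6 were below 0 and the median was -0.03, with EIF2S3 and EIF2S3B at 0.05 each; without SCC replicate 1 all 6 were below 0 and the median was -0.08. EIF2S1 (ENSG00000134001, chr14:67359997-67386516), the alpha subunit whose phosphorylation shuts eIF2 off, read 156, 190.1 and 178 CPM in SCC and 194, 209 and 199.9 CPM in RCC. Every SCC library was lower, the lowest being replicate 1, with a log2 fold change of -0.20 (SE 0.08, edgeR adjusted p = 0.201); without that library it was -0.13, and with the GC correction -0.10. EIF2S2, the beta subunit, read 200.04 to 217 against 220.3 to 230.4 CPM (log2 -0.09, SE 0.06, edgeR adjusted p = 0.462; -0.05 without SCC replicate 1), also without overlap. EIF2S3, the gamma subunit, read 230.4 to 241 against 233 to 242 CPM (log2 -0.02, SE 0.06, edgeR adjusted p = 0.887), and its copy EIF2S3B averaged 4.002 and 4.06 CPM. The 3 mRNAs of the eIF2 trimer were thus fitted at 0.869, 0.942 and 0.987 of the RCC level.

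EIF2D and EIF2A encode proteins that can bring tRNA to the ribosome apart from eIF2. EIF2D (ENSG00000143486, chr1:206571292-206612463) read 38.3, 43.5 and 43.8 CPM in SCC and 49.3, 50.03 and 46.5 CPM in RCC. The groups did not overlap, and the log2 fold change was -0.22 (SE 0.08, edgeR adjusted p = 0.193). EIF2A read 90.1 to 113 against 107 to 120.5 CPM, with overlap (log2 -0.12), and SCC replicate 1 was the lowest. Without that library the log2 value was -0.03, and with the GC correction -0.02. The 6 genes together summed to 719.7, 795 and 789.5 CPM in SCC and 818, 848 and 812 CPM in RCC, a sum over the genes that no test was run on.

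The exchange factor eIF2B, which reloads eIF2 with GTP, has 5 subunits encoded by EIF2B1 to EIF2B5, and none was called. Their log2 fold changes ran from -0.12 (EIF2B1) to 0.02 (EIF2B5), with a median of -0.08; without SCC replicate 1 EIF2B1 was at -0.06 and the median at -0.04. EIF2B5, the catalytic subunit, read 93.4, 93.0 and 94.3 CPM in SCC and 93.0, 92.6 and 90.5 CPM in RCC, which did not overlap but differed by about 1.02-fold (SE 0.06 on the log2 scale, edgeR adjusted p = 0.854). EIF2B4, the delta subunit, read 39.8 to 43.7 and 40.2 to 43.4 CPM (log2 -0.01, SE 0.08, edgeR adjusted p = 0.938). All 5 intervals lay within 1.25-fold either way.

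The eIF3 complex was represented by 14 genes, of which 9 were fitted below 0 and 5 above, with a median log2 fold change of -0.08 and no call. Its core subunits EIF3A and EIF3B read slightly higher in SCC: EIF3A 488, 466 and 469 CPM against 463, 457 and 435 CPM, without overlap (log2 0.07, SE 0.06, edgeR adjusted p = 0.529). EIF3B read 531, 417 and 420.3 CPM in SCC and 416, 410.4 and 432 CPM in RCC (log2 0.12, SE 0.09, edgeR adjusted p = 0.470). Only SCC replicate 1 was high in EIF3B, and without it the fitted value was -0.0024. EIF3G, the most GC-rich member at 60.3%, likewise read 238 CPM in that library and 194 to 200.1 CPM in the other 5.

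EIF3J and the subunits EIF3E and EIF3H leaned the other way. EIF3J (ENSG00000104131, chr15:44537057-44563029), a loosely bound subunit that acts in start site choice and ribosome recycling, read 118, 133 and 124 CPM in SCC and 146, 149 and 142 CPM in RCC. Every SCC library was lower (log2 -0.23, SE 0.07, edgeR adjusted p = 0.122); the adjusted p was 0.0255 without SCC replicate 1, at log2 -0.19, and 0.197 with the GC correction, at -0.11. EIF3E (chromosome 8) read 268, 354 and 329 CPM in SCC and 366, 377 and 349.9 CPM in RCC, with replicate 1 far the lowest (log2 -0.20, SE 0.09, edgeR adjusted p = 0.265; -0.09 without it). EIF3H, also on chromosome 8, gave -0.17 with all libraries and -0.08 without SCC replicate 1. EIF3K read 102 to 107 against 108 to 120.2 CPM (log2 -0.12), and this value did not depend on that library (-0.12 without it).

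EIF3C, which encodes a core subunit, had the lowest fold change of all members, and its sign depended on 1 library. EIF3C read 40.5, 77.2 and 34.0 CPM in SCC and 41.1, 167 and 48.2 CPM in RCC. RCC replicate 2 stood far above all other libraries, SCC replicate 2 was the highest of its own group, and the groups overlapped. The log2 fold change was -0.76 (SE 0.47, edgeR adjusted p = 0.376), and without RCC replicate 2 it was 0.18 (adjusted p = 0.808). Without SCC replicate 2 it was -1.21 (edgeR adjusted p = 0.121). EIF3C was called lower in 2 of the 18 alternatives, namely with every gene of at least 1 count tested (-0.76, adjusted p = 6.9e-14, where 0.838% of all genes were called lower) and with a replicate block and GC correction together (-0.56, adjusted p = 0.0043, where 2.72% were). Its copy EIF3CL, identical over the coding bases printed above, read 4.34, 3.63 and 3.94 CPM in SCC and 4.13, 2.53 and 6.38 CPM in RCC, lowest in the library where EIF3C was highest. In RCC replicate 2 EIF3CL held 53 counts, where EIF3C held 3505. With the pair summed the log2 fold change was -0.73 (edgeR adjusted p = 0.365), close to that of EIF3C alone. By deposited FPKM the complex was uneven: EIF3I averaged 151 FPKM and EIF3C 9.73 FPKM, although the 2 products are subunits of 1 complex. The lengths used were 1725 and 6982 bases of annotated exons, and 45.4% of EIF3C's windows are shared.

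None of the 7 tested cap-binding and scaffold genes was called by edgeR, and their median log2 fold change was -0.02 (0.02 with the GC correction and 0.01 without SCC replicate 1). EIF4E (ENSG00000151247, chr4:98871684-98930637), the cap-binding protein, read 68.4, 82.4 and 79.6 CPM in SCC and 78.6, 82.6 and 76.6 CPM in RCC (log2 -0.05, SE 0.08, edgeR adjusted p = 0.775). EIF4E2, a cap-binding repressor, read 60.9 to 63.9 against 60.4 to 69.1 CPM (log2 -0.06, SE 0.08, edgeR adjusted p = 0.675), and EIF4E3 2.41 to 3.61 CPM over all 6 libraries (log2 0.03, SE 0.21). EIF4G1, the main scaffold, read 1189, 989.7 and 1018 CPM in SCC and 991, 994 and 999 CPM in RCC (log2 0.10, SE 0.08, edgeR adjusted p = 0.469). Only SCC replicate 1 was high, and without it the log2 fold change was 0.01. EIF4G2, a scaffold without the cap-binding protein's site, read 1006, 1063 and 1062 against 1005, 1071 and 993 CPM (log2 0.03, SE 0.06, edgeR adjusted p = 0.815), and EIF4G3 161 to 166 against 161 to 170.4 CPM (log2 -0.02, SE 0.06, edgeR adjusted p = 0.896). EIF4ENIF1, which carries eIF4E to the nucleus and to P-bodies, was lower in all 3 SCC libraries (25.4 to 26.6 against 27.4 to 32.0 CPM; log2 -0.19, edgeR adjusted p = 0.268).

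Ratios inside libraries showed no call for these paralogs either. The log2 ratio of EIF4G1 to EIF4G2 was 0.31, -0.04 and 0.01 in SCC and 0.05, -0.04 and 0.08 in RCC (exact permutation p = 0.8, adjusted p = 1 over 6 pairs). EIF4G1 against EIF4G3 differed by 0.11 (exact permutation p = 0.3, adjusted p = 0.9; 0.04 without SCC replicate 1) and EIF4E against EIF4E2 by 0.01 (exact permutation p = 1, adjusted p = 1). With 3 against 3 libraries no such p can go below 0.1.

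Among the helicases and their cofactors, none of 5 genes was called, and EIF4A1 was far lower than its paralog. EIF4A2 (ENSG00000156976, chr3:186783205-186789900) read 760.3, 933 and 927 CPM in SCC and 952, 923 and 878 CPM in RCC, with SCC replicate 1 alone low (log2 -0.07, SE 0.08, edgeR adjusted p = 0.648). EIF4A1 (ENSG00000161960, chr17:7572706-7579005), known as the major helicase of eIF4F, read 32.5, 29.04 and 24.9 CPM in SCC and 26.8, 21.2 and 32.1 CPM in RCC (log2 0.12, SE 0.15, edgeR adjusted p = 0.680; 0.02 without SCC replicate 1). Per length this was 5.19 FPKM, rank 41 of 48, against 145 FPKM for EIF4A2. In GENCODE 29, 86.8% of EIF4A1's coding bases and 48.6% of its exon bases lie also in other genes on the same strand, chiefly AC016876.2 (41.1% of exon bases) and the read-through gene SENP3-EIF4A1 (29.8%). Those genes held only 0 to 11 and 10 to 27 counts per library, where EIF4A1 held 444 to 877 and its 12 pseudogene rows together 259 to 324. Whether reads in the shared bases were counted at all is not given in the sources used here, so the level of EIF4A1 and its ratio to EIF4A2 cannot be read as the cell's.

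The ratio of EIF4A1 to EIF4A2 lay between -5.01 and -4.34 in the SCC libraries and between -5.24 and -4.57 in the RCC libraries on the log2 scale (exact permutation p = 0.6, adjusted p = 1 over 6 pairs); the means differed by 0.20, and by 0.01 without SCC replicate 1. EIF4A3, the helicase of the exon junction complex, read 265, 229 and 232 CPM in SCC and 218, 223 and 225 CPM in RCC, without overlap (log2 0.12, SE 0.07, edgeR adjusted p = 0.354; 0.05 without SCC replicate 1). The cofactors EIF4B (359 to 377 against 334 to 368 CPM; log2 0.04, SE 0.07, edgeR adjusted p = 0.746) and EIF4H (888 to 939 against 887 to 919 CPM; log2 0.02, SE 0.06, edgeR adjusted p = 0.837) were level. A similar overlap touched EIF3L, where 41.1% of exon bases lie in AL022311.1 on the same strand (log2 0.04). Same-strand overlap also covered 84.4% of the coding bases of EIF4E3 (AC097634.4) and 33.3% of those of EIF6 (AL121753.1). Opposite-strand overlap, which matters if strand was not used, reached 37.2% of the coding bases of EIF5A (GPS2) and 21.7% of those of EIF4B (AC068888.1). GPS2 held 150 to 456 counts per library, where EIF5A held 16930 to 27456.

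The last 4 genes act around the ribosome after or before initiation. EIF5A (ENSG00000132507, chr17:7306999-7312463) read 1018, 866 and 885 CPM in SCC and 923, 974 and 978 CPM in RCC. The groups overlapped only through SCC replicate 1 (log2 -0.05, SE 0.07, edgeR adjusted p = 0.700). With the GC correction EIF5A was called lower (-0.18, adjusted p = 0.0375, where 1.54% of all genes were called lower), and without SCC replicate 1 it was not (-0.13, adjusted p = 0.0844). EIF5A is GC-rich (57.3%), and among the members this correction left a Spearman rho of -0.38 between fold change and GC content. Whether that trend bears on the call was not tested. EIF5A2, its paralog, read 17.4 to 20.3 against 17.2 to 20.8 CPM (log2 -0.04, SE 0.11, edgeR adjusted p = 0.861), and the EIF5A to EIF5A2 ratio differed by -0.02 (exact permutation p = 0.9, adjusted p = 1). EIF6, which keeps the large subunit from joining too early, read 166 to 176 against 155 to 167 CPM (log2 0.08, SE 0.06, edgeR adjusted p = 0.499).

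Part of this scatter followed base composition. GC content of the longest transcript ran from 34.3% (EIF5A2) to 60.3% (EIF3G) among the tested members, with a median of 45.8% (all genes 48.1%). Across the 47 genes the log2 fold change had a Spearman rho of 0.38 with GC content (Pearson 0.25); all points share the same 6 libraries, so this is a description. Without SCC replicate 1 rho was 0.02, and with the GC correction it was -0.38. For all 15874 tested genes with a GC value rho was 0.47, 0.23 and 0.00 in turn. The 12 members of lowest GC (34.3% to 40.2%) had a median deviation from the mean over libraries of -0.21 on the log2 scale in SCC replicate 1 and of -0.02 to 0.11 in the other 5 libraries. The 12 of highest GC deviated by 0.07 in that library and by -0.05 to 0.02 in the others.

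**Figure D3:**
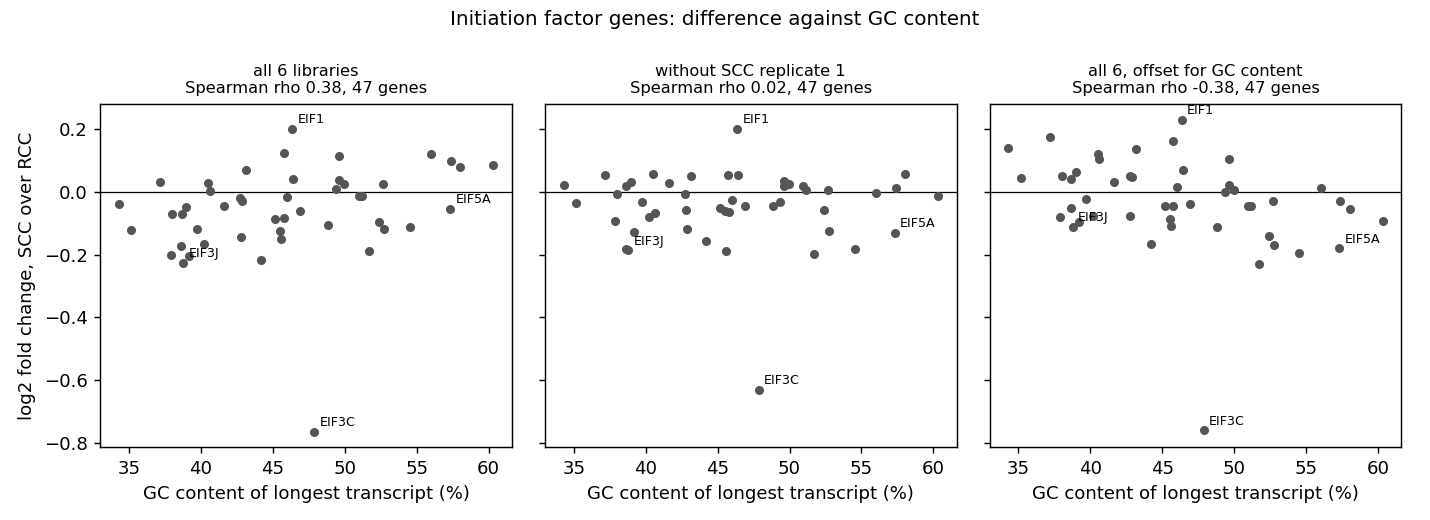
Log2 fold change of SCC over RCC against the GC content of the longest transcript for the 47 tested initiation factor genes, each point 1 gene. With all 6 libraries values are higher at higher GC content (rho 0.38), without SCC replicate 1 there is little trend (0.02), and after a correction fitted on all genes the trend is negative (-0.38).

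The other genes of the pathway were taken from 4 lists of 54 genes: elongation factors, termination and recycling factors, partners of the initiation factors, and regulators of initiation. Of these 52 were tested, 4 rose in SCC and 0 fell by edgeR at an adjusted p under 0.05, where 1.69% of all genes were called higher and 0.378% lower. Unadjusted p-values were under 0.05 for 5 higher and 4 lower genes, against 11.4% of all genes higher and 8.27% lower. DESeq2 called 5 higher and 0 lower, where it called 2.51% of all genes higher and 0.763% lower. The 3 largest rises were among the 24 tested regulators, whose median log2 fold change was 0.12. These lists were set up with earlier results of the same data known, so their counts are a description.

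PPP1R15A (ENSG00000087074, chr19:48872392-48876057) encodes GADD34, the stress-induced subunit that directs a phosphatase to eIF2 alpha and so undoes its phosphorylation. It read 281, 239 and 237 CPM in SCC and 106, 104 and 95.8 CPM in RCC. The groups were far from overlapping, and the log2 fold change was 1.31 (SE 0.08, edgeR adjusted p = 1.06e-05). Without SCC replicate 1, the library with the most leukocyte marker RNA, it was 1.22, and it was called in all 18 alternatives. Its constitutive counterpart PPP1R15B read 139.7, 150.4 and 148 CPM in SCC and 133, 138 and 128 CPM in RCC, without overlap (log2 0.14, edgeR adjusted p = 0.272; 0.0380 without SCC replicate 1).

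The 221 bases from 250 before the RefSeq start of PPP1R15A up to the first annotated transcript are given because this was the gene of the pathway that differed most (GRCh38.p14, plus strand, chr19:48872171-48872391). Capitals mark a TGACGTCA match, 58 bases before the RefSeq start.
PPP1R15A promoter: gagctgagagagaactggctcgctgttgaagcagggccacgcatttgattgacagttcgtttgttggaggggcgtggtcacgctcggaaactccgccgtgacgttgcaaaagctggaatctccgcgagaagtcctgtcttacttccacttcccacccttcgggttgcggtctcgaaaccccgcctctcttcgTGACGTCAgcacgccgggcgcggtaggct
This motif, the cAMP response element that ATF and some AP-1 dimers can bind, was in 1.77% of all promoters, in 2.80% of those of tested genes and in 3 of 45 matched promoters of the 4 lists (EEF2, ABCE1 and PPP1R15A). Of these 3 genes edgeR called only PPP1R15A. TGANTCA was in 3 of the 45 (GSPT1, DENR and EIF2AK4) and TGATGCAA in 2 (PPP1R15B and TSC2), and edgeR called none of those genes. A link between the motif and the rise of PPP1R15A was not tested.

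DDIT4 and SESN2 encode stress-induced proteins that restrain mTOR complex 1, the kinase complex upstream of eIF4F assembly. DDIT4 (ENSG00000168209, chr10:72273920-72276036) read 29.6, 22.4 and 24.5 CPM in SCC and 13.1, 13.95 and 13.1 CPM in RCC (log2 0.93, SE 0.12, edgeR adjusted p = 0.00167; 0.81 without SCC replicate 1). SESN2 (ENSG00000130766, chr1:28259527-28282491) read 21.5, 17.2 and 13.99 CPM in SCC and 8.26, 7.79 and 7.22 CPM in RCC (log2 1.18, SE 0.16, edgeR adjusted p = 0.0023; 1.00 without SCC replicate 1). Both rose without overlap, with the highest value in SCC replicate 1, and both were called in 17 of 18 alternatives. Of DDIT4's exon bases 41.2% lie opposite DDIT4-AS1, which had 0 counts in all libraries.

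**Figure D4:**
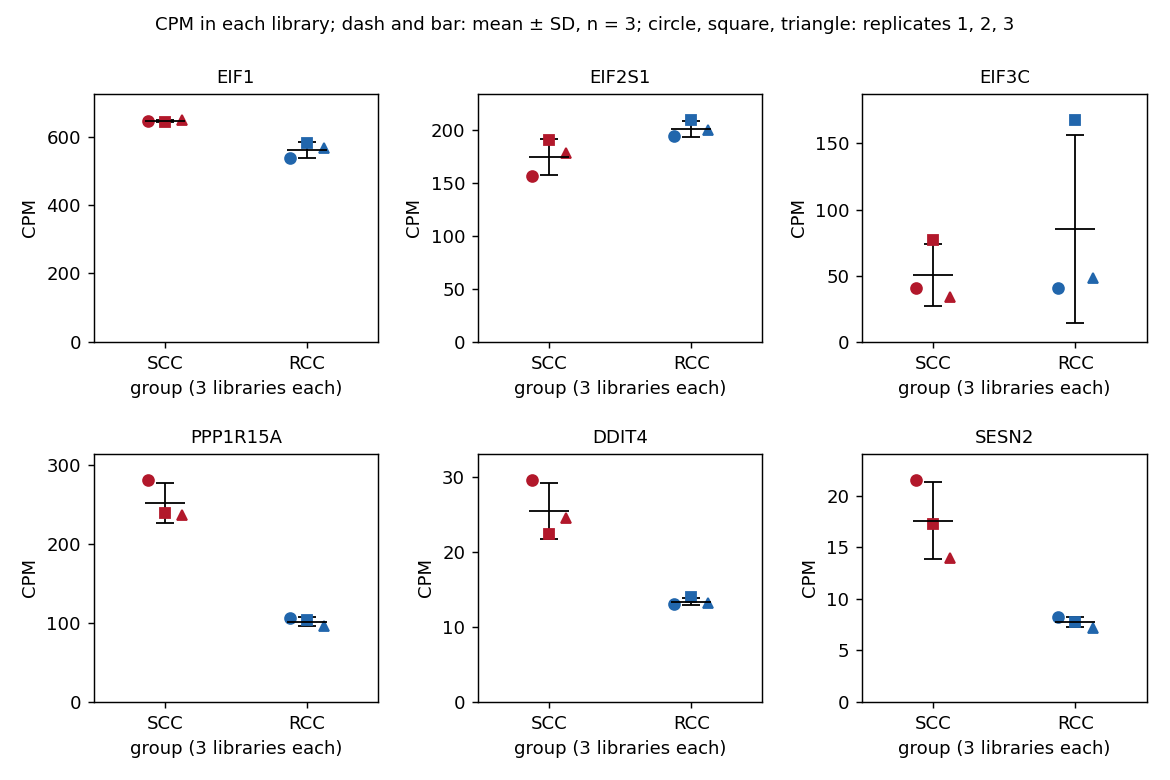
CPM in each library (circle, square and triangle for replicates 1, 2 and 3; red SCC, blue RCC) with mean ± SD (n = 3) for EIF1, EIF2S1 and EIF3C above and PPP1R15A, DDIT4 and SESN2 below; axes start at 0. EIF1 is fitted at 1.15 times and EIF2S1 at 0.869 times the RCC level. EIF3C is highest in replicate 2 of each group, most of all in RCC, and the lower 3 genes are separated by 1.91-fold to 2.48-fold.

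Of the other regulators, none of the 4 eIF2 kinases was called by edgeR. The log2 fold changes were 0.03 for EIF2AK1 (adjusted p = 0.846), -0.20 for EIF2AK2 (0.167), 0.13 for EIF2AK3 (0.403) and -0.01 for EIF2AK4 (0.922). The cap-binding inhibitors EIF4EBP1 and EIF4EBP2 gave 0.13 and -0.06, and MTOR 0.10, none of them called by edgeR. PELO (ENSG00000152684, chr5:52787940-52804046), a rescue factor for stalled ribosomes, read 52.1, 53.3 and 56.1 CPM in SCC and 42.7, 43.9 and 41.9 CPM in RCC (log2 0.33, SE 0.07, edgeR adjusted p = 0.0488). It was called in only 6 of the 18 alternatives, whose adjusted p ran from 0.00132 to 0.238, and 10.9% of its exon bases lie in ITGA1. The smallest p among elongation factors was that of EEF1A2, which read 251, 175 and 183 against 162, 153 and 146 CPM (log2 0.40, SE 0.12, edgeR adjusted p = 0.113; 0.22 and 0.00669 without SCC replicate 1), and among partners that of MCTS1 (log2 -0.26, SE 0.11, edgeR adjusted p = 0.234). EEF1G had 0 counts in all 6 libraries, and 99.9% of its exon bases lie also in AP002990.1 on the same strand. AP002990.1 itself held only 33 to 74 counts per library, so neither row gives the level of that factor. How reads in such shared bases were assigned was not tested.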

How the data were processed

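Counts of reads per gene were deposited by the authors as whole numbers for 6 libraries, together with FPKM values per gene and a column of gene length. The submitters' processing notes name HISAT2 2.0.5 and featureCounts 1.5.0-p3; the genome build, the use of strand and read filters are not given in the sources used here, so values of overlapping or antisense genes are uncertain. All 58735 rows had the gene ID, position and exon length of GENCODE 29 (GRCh38), and the deposited FPKM values were counts per exon length and per 1 constant for each library, 0.983 to 1.02 times its summed count.

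Counts were filtered with filterByExpr (minimum count 10), TMM-scaled and fitted by group with edgeR 4.0.16 in R 4.3.3; two-sided quasi-likelihood p-values were adjusted (Benjamini-Hochberg) over all 15881 tested genes, and an adjusted p under 0.05 was called. The limma 3.58.1 test on log2(FPKM + 1) used genes of at least 1 FPKM in 3 libraries; with its pseudocount, fold changes of low genes are understated. DESeq2 1.42.0 was the other count test. The GC correction was, per library, a lowess curve (span 0.3) over all genes of the deviation in log2 CPM against GC content of the longest transcript, used as an offset. Paralog ratios went through an exact permutation test (two-sided). Promoters came from a RefSeq table (GRCh38.p14).

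The members, the 4 translation lists, the 4 marker lists and the 18 alternatives were chosen with earlier results of these data known; 1 alternative, summing copies and overlapping genes, was added after seeing the files. Full values are given for called members, for the 4 highest and 4 lowest fold changes at a mean of at least 5 CPM, for a set of core factors whatever their result, and for each called gene and the gene of smallest p in the other lists; PPP1R15B, EIF3G, EIF3H, EIF3K, EIF3L, EIF4ENIF1, the eIF2 kinases, EIF4EBP1, EIF4EBP2 and MTOR were named after their values were seen. All rows carried gene IDs, and all count and FPKM columns belonged to the 6 libraries.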

Additional observations from a re-analysis of the deposited data

How the results depend on the processing

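Among the 18 alternatives, the GC offset called 1 of 47 tested members higher (EIF1) and 1 lower (EIF5A), against 3.29% and 1.54% of all genes. The replicate block plus GC offset called 1 higher (EIF1) and 2 lower (EIF3C, EIF5A), against 3.91% and 2.72% of all genes. With every gene of at least 1 count 1 member was lower (EIF3C), against 0.838% of all genes. Leaving out a library gave 0 to 1 higher and 0 to 2 lower. Those calls came without SCC replicate 1, where 3.93% of all genes were called higher and 2.10% lower. The replicate block alone gave 0 higher and 0 lower, against 2.20% and 0.667% of all genes. It turned the call of PELO (edgeR adjusted p = 0.0715) and EEF1A2 (0.0360). Same-numbered libraries did not deviate together over all tested genes (r of -0.01, 0.02 and -0.08), so the numbers were not taken as pairs. Other translation genes called higher were 1 with log2(FPKM + 1) without a filter, where 0.128% of all genes were called higher. With a library left out they were 3 to 6, where 0.602% to 3.93% of all genes were. The 6 came without SCC replicate 1, where the share of all genes was 3.93%. With every gene of at least 1 count 1 was lower (EEF1E1), where 0.838% of all genes were called lower. The members' median kept its sign, from -0.08 to -0.03. With the GC offset 14 of 47 tested members crossed 0 (also EIF1AD, EIF2S3B, EIF3G and EIF3M). Among named genes fold changes crossed 0, all without a call and with the cause not tested, under the GC offset and under block plus GC offset alike: EIF1AX 0.043, EIF2S3 0.052 and 0.051, EIF4A2 0.040, EIF4E 0.062 and 0.063, EIF4G1 -0.028, EIF4G3 0.016, EIF4H -0.028, EIF5 0.031, EIF5A2 0.14 and EIF6 -0.054 (1 value where both agree). Leaving out 1 library gave EIF2B4 -0.061 to 0.018, EIF3B -0.0024 to 0.17, EIF3C -1.21 to 0.18, EIF4A1 -0.032 to 0.26, EIF4A2 -0.13 to 0.020, EIF4B -0.012 to 0.061, EIF4E -0.11 to 0.031, EIF4E3 -0.12 to 0.15, EIF4G2 -0.00023 to 0.059, EIF5 -0.12 to 0.027, EIF5A2 -0.13 to 0.021, and differences in log2 ratio of -0.043 to 0.13 (EIF4G1/EIF4G2), -0.052 to 0.077 (EIF4E/EIF4E2) and -0.16 to 0.078 (EIF5A/EIF5A2). Of 628 checks of named genes, 566 kept direction and call. Low counts, whose cause was not tested, left EIF4E1B out of the fit and limit EIF4E3, EIF2S3B and EIF3CL, each at a mean under 5 CPM.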

Other observations

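Beside the 48 protein-coding genes the table held 74 noncoding rows with an EIF name outside chromosome Y, of which 71 were pseudogenes. Counts were 0 in every library for 26 of the pseudogene rows, 11 noncoding rows passed the filter on low counts, and edgeR called 0 of these 11 in either direction. The highest was EIF1AXP1, a processed pseudogene of EIF1AX on chromosome 1, at 16.6 CPM ± 1.44 (SD, n = 3) in SCC and 19.3 CPM ± 2.24 (SD, n = 3) in RCC (log2 -0.23, SE 0.12, edgeR adjusted p = 0.295). EIF4HP1, a copy of EIF4H, read 12.0, 8.54 and 9.49 CPM in SCC and 9.17, 10.2 and 8.78 CPM in RCC, highest in SCC replicate 1. EIF3J-DT, the divergent transcript beside EIF3J, averaged 5.04 CPM in SCC and 5.53 CPM in RCC (log2 -0.13, SE 0.16, edgeR adjusted p = 0.657), where EIF3J itself gave -0.23.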
